A study of Mus musculus with 6 samples.

Results

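The CpG islands (CGIs) described here are those of the Mdr2-KO liver, measured by methylated DNA immunoprecipitation (MeDIP) against input DNA on 3 arrays, out of 6 in the series. The 3 arrays were those whose labels give the genotype Mdr2-KO, with 1 array for each mouse. The livers came from FVB mice at 12 months of age, and according to the methods of the study they were males homozygous for the allele Abcb4tm1Bor on an FVB.129P2 background. The labels call them biological replicates 1 to 3. The other 3 arrays of the series, from heterozygous Mdr2-/+ livers, enter no value below. Whole liver was used, so that each value is an average over hepatocytes, bile duct cells and the immune and stellate cells of an inflamed organ. The tissue was not checked by a marker list, since no gene names for the array's coordinates were used.

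Mdr2 (Abcb4) is the transporter that moves phosphatidylcholine from the hepatocyte into bile. Without it bile acids reach the bile ducts unbuffered, and the liver passes through chronic inflammation and regeneration to hepatocellular carcinoma. CpG islands are stretches of DNA dense in the dinucleotide CpG, many of them at promoters. Most are free of methylation in normal tissues. Islands that carry methylation are known at genes of the germ line, at imprinted genes, on the silent X chromosome of females and within gene bodies.

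In MeDIP an antibody against 5-methylcytosine captures methylated fragments of sheared DNA. Captured DNA was labelled with the dye Cy5, and unselected DNA from the same liver, the input, with Cy3. The level of a probe is the log2 ratio of Cy5 over Cy3, centred on the median of its array, so that 0 is the typical CGI probe and not an absence of methylation. The ratio rises with the number of methylated CpGs in a fragment and is no percentage. An island was built from at least 3 successive probes with neighbouring starts within 500 bp, and its level in a mouse is the mean of its probes. This gave 13828 islands from 85574 probes, with a median of 5 probes and a median span of 644 bp. Input was well above background at 85.9% to 91.5% of the probes of an array and MeDIP at 81.5% to 86.4%, with replicate 2 the lowest in both. Replicates 2 and 3 shared a slide and replicate 1 lay on another. Coordinates are those of the array design, mm8, and islands are named by position since no gene names of that build were used here.

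Most islands sat near the array median, and a separate population stood far above it. Over all islands the median level, as a mean of 3 mice, was -0.12 with quartiles of -0.56 and 0.55, and the levels ran from -2.31 to 6.09. Their density had its main peak at -0.35 and a broad second rise with its top at 4.38, with the lowest density between them at 2.73. MeDIP exceeded the array median at 2532 islands, which is 18.3% of all those tested, by an adjusted p under 0.05 from limma and a mean level of at least 1. MeDIP fell below it at 894 islands, or 6.47%, with a mean of -1 or less. The enriched islands had a median level of 3.18, and 1331 of them (52.6%) reached 3 or more. With loess normalization within arrays 486 islands reached 3, and with normexp background correction 495 did. The depleted islands had a median of -1.17, close to the limit that defined them. By adjusted p alone 34.5% of islands were higher and 44.9% lower than the median, so the limit on the level sets both counts.

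**Figure D1:**
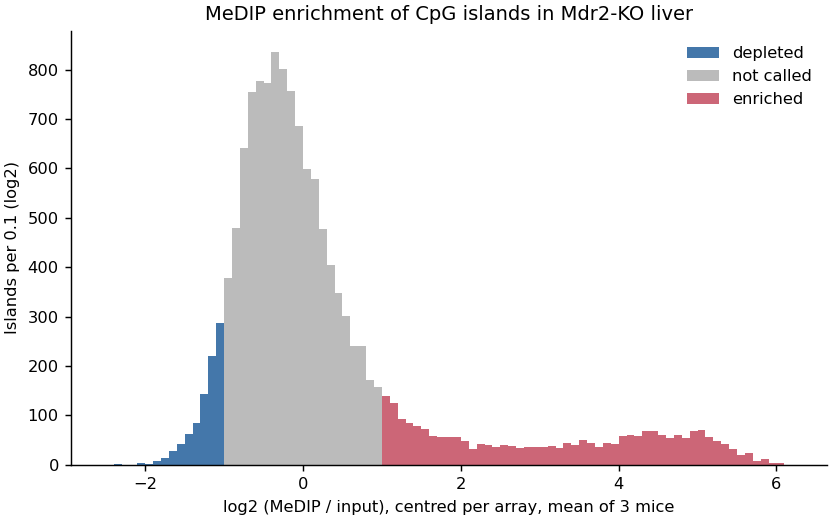
Number of islands (vertical axis, per 0.1 on the log2 scale) at each mean level of the 3 Mdr2-KO mice (horizontal axis, centred log2 ratio of MeDIP over input), coloured by call. A main peak lies at -0.35, and a broad second rise, made of enriched islands, has its top at 4.38.

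The division into enriched islands and the rest was not equally sharp on all sides. In the 2532 enriched islands, 1794 had every probe at a mean of 1 or more, and 163 held both a probe below 0 and a probe at 2 or more. Just inside and just outside the limit stood islands with means of 1.00007 and 0.9996, and 140 enriched islands lay within 0.1 above the limit while 157 with the same adjusted p lay within 0.1 below it. Input was dim, which here means that on at least 1 array under 50% of an island's probes were well above background, at 70 of the enriched islands (2.76%) and at 2.12% of those not called. For the depleted islands the limit lay in the other channel. On each of the 3 arrays MeDIP was well above background at no more than 50% of the probes in 156 of 894 depleted islands (17.4%), against 0.158% of the enriched and 3.68% of the rest, so that those 156 levels rest largely on bounds. With normexp, run with an offset of 50 in both channels, 1666 islands were enriched and 0 depleted, also 0 at an unadjusted p under 0.05. Such an offset draws ratios of dim signals towards 0 by construction.

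The island with the highest mean lay on chromosome 11 from 77287634 to 77287929 and held 3 probes. Its levels were 6.21, 6.10 and 5.97 in replicates 1 to 3, a mean of 6.09 ± 0.12 (SD, n = 3 mice; standard error 0.08, adjusted p = 3.87e-10 from limma). All 3 livers lay far above the second rise of the density. The island of 9 probes on chromosome 8 that spans 125221954 to 125223351 had levels of 5.88, 5.99 and 5.88. On chromosome 17 an island of 8 probes, from 23303733 to 23304460, had 6.08, 5.87 and 5.85. Neither of these islands spread over more than 0.24 between mice, and no probe of either had a mean under 5.25. The remaining islands of the highest 10 had means from 5.85 to 6.01. Loess lowered all 10 by more than 1.5 times. The highest mean became 2.75, the island of 9 probes 2.52 and the island of 8 probes 2.30, and apart from 1 island treated below the 10 lay from 1.102 to 3.635, each still called enriched. At 2 islands other values stood apart. On chromosome 4, from 140745000 to 140745332, the levels were 5.59, 5.28 and 6.69, and the centred log2 input, as a mean over its 3 probes, fell from 0.03 in replicates 1 and 2 to -1.32 in replicate 3, while the MeDIP channel differed by only 0.26. A single probe, from 140745288, carried the difference of replicate 3, with 5.19, 5.17 and 9.35. The other probes had 5.31 and 5.41 in replicate 3. With medians over probes the level of this island was 5.42. On chromosome 17, from 39451519 to 39452156, the levels were 5.69, 6.04 and 5.86, in an island whose input alone stood 2.73 to 2.89 above the array median and whose MeDIP stood 8.60 to 8.87 above it. Loess turned the level of this island to -1.34.

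At the other end the 10 lowest islands had means from -2.31 to -1.86, with 3 to 5 probes each. The lowest, on chromosome 6 from 13019691 to 13020168, had levels of -2.06, -2.68 and -2.19 (mean -2.31 ± 0.33, SD, n = 3 mice, adjusted p = 6.29e-07 from limma). The island on chromosome 3 from 121283684 to 121284133, with 5 probes, had -1.99, -1.82 and -1.86, the smallest SD of the 10. Its MeDIP was well above background at shares of only 0.4, 0.2 and 0.2 of its probes in replicates 1 to 3. Single probes differed more between mice, such as that from 121283971 with -2.08, -0.50 and -0.44. On chromosome 11, from 45798484 to 45798998, the levels were -1.49, -2.92 and -1.61, with no probe of replicates 2 or 3 well above background in the MeDIP channel. All 10 lost their call with normexp correction.

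Some enriched islands had nearly identical levels in the 3 livers. The smallest SD of any was 0.00094, at an island of 5 probes on chromosome 17 from 56251223 to 56251652, where each mouse had a level of 4.41. Single probes of this island differed more between mice. Its first probe had 4.35, 3.96 and 4.11 and its last 3.31, 3.74 and 3.44. Another such island, on chromosome 15 with 8 probes from 75999499 to 76000706, had levels of 5.09, 5.09 and 5.10. Constancy was not restricted to islands with uniform probes. On chromosome 9, from 44484600 to 44486229, the level over 11 probes was 1.22 in replicates 1 and 2 and 1.23 in replicate 3, and these probes ran from -0.98 to 3.34. Its call ended with normexp, at a level of 0.54, and with limma's treat against a log2 ratio of 1 (adjusted p = 0.053). With loess the steady islands on chromosomes 17, 15 and 9 had levels of 2.24, 2.98 and 1.04. These islands were picked for their small SD, which is therefore a description.

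Enriched islands were spread over all chromosomes at unequal shares. Chromosome 15 had 148 of its 604 islands enriched (24.5%) and chromosome 8 had 192 of 795 (24.2%). Chromosomes 7 and 17 followed with 23.5% and 23.1%. The lowest shares were 11.8% on chromosome 13 (61 of 515) and 12.3% on chromosome 3 (74 of 601). Chromosome 3 also had the highest share of depleted islands, 9.32%. Within 2 Mb of the last island of each chromosome 14.4% of 375 islands were enriched, a lower share than on the remainder of the chromosome for 14 of 20 chromosomes. Within 2 Mb of the first island the share was 18.6% of 296.

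**Figure D2:**
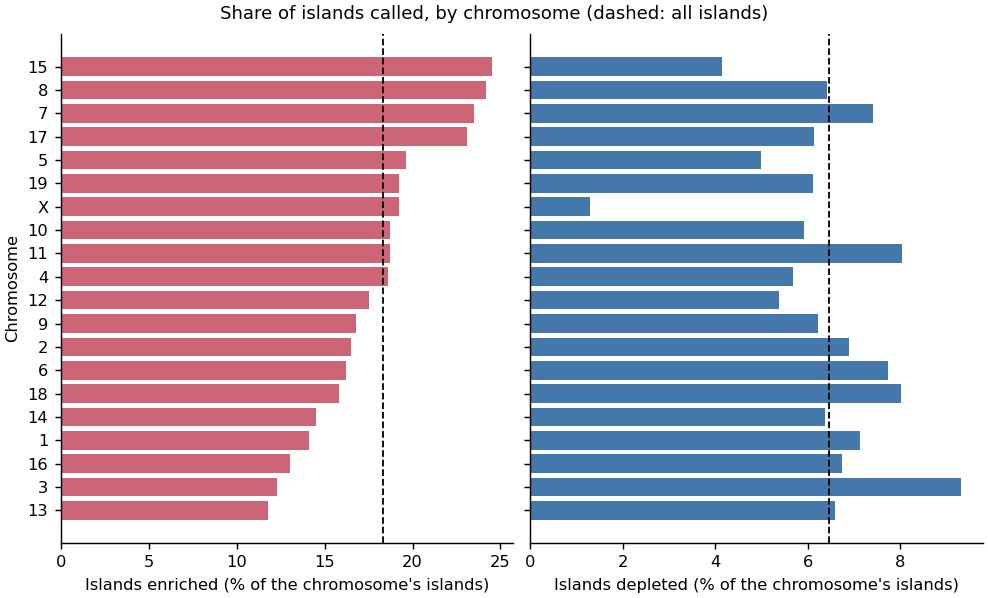
Share of each chromosome's islands that were enriched (left) or depleted (right), in percent, with chromosomes ordered by the share enriched and dashed lines at the shares of all islands, 18.3% and 6.47%. Chromosomes 15, 8, 7 and 17 lead on the left, and the X chromosome has the lowest share depleted.

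The X chromosome had a higher median level than the autosomes, a like share of enriched islands and the lowest share of depleted islands. A male carries a single copy of it, and its input signal was lower than that of autosomal islands by 0.66, 0.66 and 0.64 (difference of median log2 intensities) in replicates 1 to 3. The MeDIP signal was lower by less, 0.40, 0.32 and 0.34. The median level of the 385 X islands was accordingly 0.20, 0.18 and 0.21, above the autosomal medians of -0.12, -0.15 and -0.12 in each mouse. The share enriched was 19.2% on the X and 18.3% on the autosomes. Levels of 3 or more were reached by 7.27% of X islands and 9.68% of autosomal ones, and depletion by 1.3% and 6.62%. The part of the dimmer input in these shares was not tested.

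Short islands were enriched more often than those of middle length. The share was 28% of 2184 islands with 3 probes, 25.1% with 4 probes, 12.4% with 6 or 7 probes and 12.7% with 8 to 10. It was higher again, 19.7%, in the 76 islands with 21 to 40 probes. Place within an island mattered little. In islands of at least 8 probes, 20.7% of the probes nearest the ends and 19.6% of those nearest the middle had a mean of 1 or more, at medians of -0.06 and -0.13.

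Enriched islands lay beside enriched islands. Where the nearest island was under 1 kb away and itself enriched, 59.1% of islands were enriched (88 of 149), and where that neighbour was not enriched the share was 8.14%. Runs this close count as separate islands only through the 500 bp limit. From 1 to 5 kb the shares were 44% and 23.1%, from 5 to 20 kb 27.4% and 21.9%, and from 20 to 100 kb 17.7% and 14.3%. From 100 to 1000 kb they were 15.6% and 11.4%, and beyond that only 6 islands had an enriched neighbour, none of them enriched. The difference between the shares was thus wide up to 5 kb and smaller from there to 1000 kb. Most enriched islands stood alone in the order along the chromosome. Of the stretches of successive enriched islands, 1466 held 1 island, 297 held 2 and 84 held 3, and 13 held 6 or more.

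Of those 13 longest stretches, 5 lay on chromosome 8. The one from 46449325 to 46550419 held 8 islands with levels from 3.80 to 5.67 (median 4.94), and the one from 111681335 to 112230080 held 6 islands from 4.42 to 5.19. Chromosome 15 had a stretch of 7 islands from 75917494 to 76025650 with a median of 5.08. The most islands, 9, lay on chromosome 12 from 109481045 to 110727824, at a lower median of 1.62 and a range from 1.14 to 5.24. On the X chromosome 6 islands from 11284658 to 11313333 had a median of 1.36. Both kinds of stretch thus occur, with levels near the second rise and with levels just over the limit.

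The 3 livers gave nearly the same profile. Across islands Pearson's r was 0.985 between replicates 1 and 2, 0.990 between 1 and 3 and 0.983 between 2 and 3, the pair that shared a slide. Restricted to the 11296 islands with means under 1 the coefficients were 0.899, 0.915 and 0.886. The islands share each array's hybridization and scan, and these coefficients are descriptions. The median SD between mice was 0.13 and the median range 0.25. Small shifts ran with level. Relative to the mean of the other mice, replicate 2 was lower by a median of 0.15 below a level of -1 and higher by 0.12 between 2 and 3, and replicate 3 went the opposite way, 0.10 higher and 0.22 lower. In the enriched islands replicate 3 had the lowest level at 1612 of 2532.

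Livers of the same genotype and age differed by 1 or more on the log2 scale, a factor of at least 2 in the ratio, at 155 islands (1.12%). Since each mouse had 1 array, no test of a difference between mice was possible and the islands are described by their values. Just inside and outside the limit the ranges were 1.005 and 0.998, with 67 islands within 0.1 above it and 82 within 0.1 below. In the 155 islands the median range was 1.11 in the MeDIP channel and 0.14 in the input. The medians over all islands were 0.24 and 0.12. Not all of the 155 passed the limit in the MeDIP channel itself, which had a range of 1 or more at 103 of them, and the input did at 6. In 120 of the 155 islands every probe placed the same mouse at the extreme. That mouse was taken from the means of these probes, in islands picked for their range, so agreement follows in part by construction. The share over all islands was not counted. Input was dim at 21 of these 155 islands (13.5%), against 2.27% of all islands, and its part in the ranges was not tested island by island. The other 134 are only the remainder of the same count and no separate check. Enriched islands made up 63 (40.6%) and depleted ones 9 (5.81%), against 18.3% and 6.47% of all islands. With loess 66 islands varied, with normexp 250 and with medians over probes in place of means 376.

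Varying islands were most frequent at middle levels. They made up 3.62% of 1604 islands with means from 1 to 4, against 0.814% below 1 and 0.539% at 4 or more. With quantile normalization between arrays the shares were 1.62%, 0.797% and 0.323%, and with loess 0.374%, 0.496% and 0.431%. The middle range thus led by less under quantile normalization, and under loess it did not lead. Islands of 3 probes varied at 2.34%, more often than any group with more probes, which had 0.644% to 1.32%.

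Replicate 2 was the mouse most often apart from the others. The mouse called apart is the highest or the lowest, whichever lies farther from the middle mouse, however close the 2 distances. By this rule replicate 2 was higher at 91 of the 155 islands and lower at 16. It exceeded replicate 3 by 1 or more at 90 islands but replicate 1 at only 34. By as much it lay below replicate 3 at 28 and below replicate 1 at 18. Replicate 3 was higher at 22 and lower at 7, and replicate 1 higher at 13 and lower at 6. Replicate 2 also had the fewest probes above background and the widest spread of ratios, with an SD of 1.75 against 1.70 and 1.66. With the arrays scaled to one SD the 91 became 66, and with probes kept only where input was well above background on all arrays 85. It became 56 with quantile normalization, 60 when each mouse's trend with level was removed, 10 with loess and 4 with normexp. Without replicate 2, 27 islands varied between the remaining pair, without replicate 3 there were 52, and without replicate 1 there were 118.

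**Figure D3:**
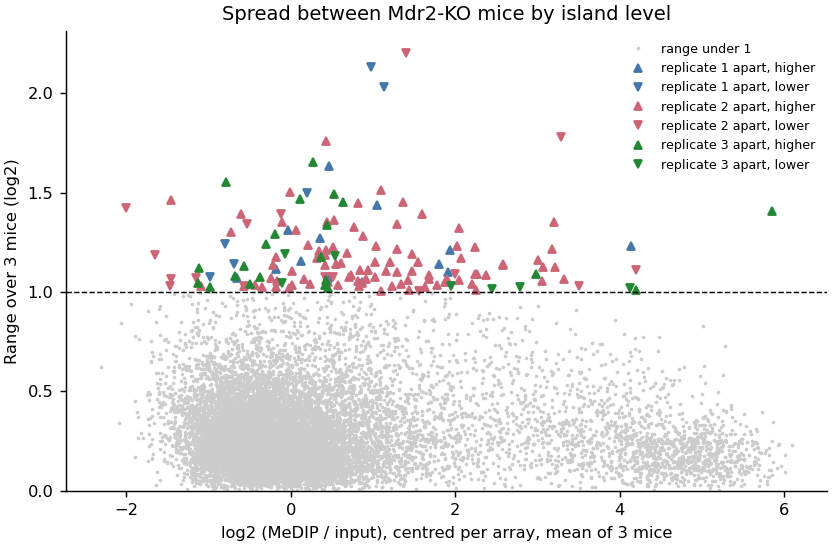
Range over the 3 mice (vertical axis, log2) against mean level (horizontal axis, centred log2 ratio of MeDIP over input) for each island, with the 155 islands past a range of 1 (dashed line) coloured by the replicate that stood apart and pointed up or down for higher or lower. Replicate 2 apart and higher makes up 91 of them, many at levels between 0 and 3.

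The widest range of all, 2.20, was found at an island of 4 probes on chromosome 11 from 58683255 to 58683660. Replicates 1 and 3 had levels of 2.22 and 1.96 and replicate 2 had 0.01. Each of the 4 probes was lowest in replicate 2, whose values ran from -0.33 to 0.60, below the lowest probe of either other mouse at 1.55. The input of this island differed by 0.09 between mice. The island of 4 probes on chromosome 5 from 144013726 to 144014102 behaved alike, with 3.89 and 3.87 in replicates 1 and 3 and 2.11 in replicate 2. There the mouse that stood apart was still enriched.

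A pair of islands on chromosome 9 set replicate 1 apart. From 103860658 to 103861564, over 7 probes, the levels were 0.01, 1.35 and 2.04. From 103921128 to 103921460, over 3 probes, they were -0.36, 1.52 and 1.77. No other island lay between them, and input differed by 0.10 and 0.15. Replicate 1 was lowest at 6 of the 7 probes and at all 3. Their ranges were 2.03 and 2.13, and without replicate 1, the mouse apart, they were by construction narrower, at 0.69 and 0.25. They were 2.14 and 2.23 with quantile normalization, 0.84 and 1.29 with loess and 1.08 and 0.91 with normexp.

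On chromosome 3 replicate 3 was the higher mouse. The island of 17 probes from 93528964 to 93531113 had levels of -0.46, 0.08 and 1.19, and replicate 3 was highest at 15 of 17 probes. The neighbouring island of 3 probes, which ends at 93531874, had -0.83, -0.48 and 0.41. Replicate 1 was lowest at all 17 probes of the larger island. Another island on that chromosome, of 10 probes from 61452287 to 61453643, had -0.46, 0.96 and -0.54 and set replicate 2 apart at 9 of its 10 probes.

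A 10-probe island on chromosome 6 from 70885652 to 70886926 had levels of 0.76, 2.01 and 0.50. In all 3 mice the first and the last probe were lower than all others of the island and the fourth was the highest, and replicate 2 was highest at each probe. Further islands of the 10 with the widest range lay on chromosome 15 from 87452985 to 87453539 (0.23, 1.40 and -0.36), on chromosome 13 with probe starts from 120606919 to 120607139 (1.46, -0.17 and 0.11) and on chromosome 4 from 136660179 to 136660757 (-0.98, -1.46 and 0.09). Input differed by no more than 0.28 between mice at any of the 10. With quantile normalization all 10 stayed past a range of 1, with loess 8 did and with normexp 2.

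**Figure D4:**
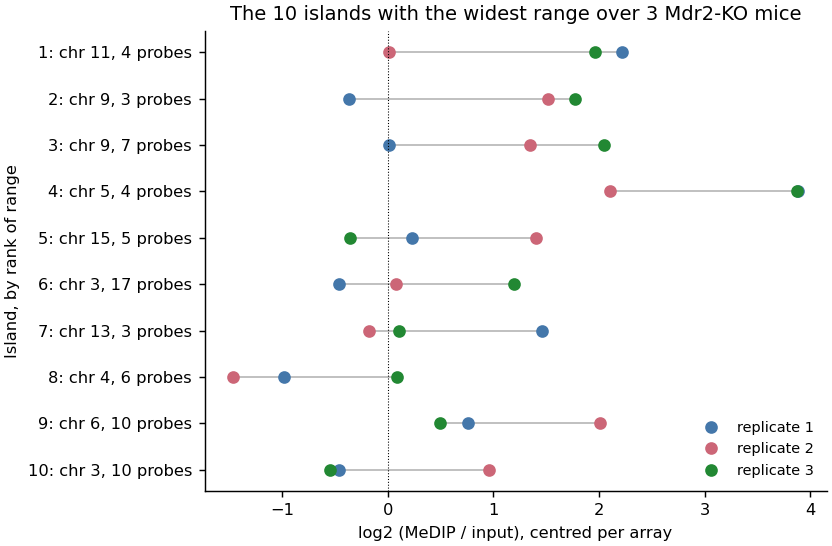
Level of each Mdr2-KO mouse (points, centred log2 ratio of MeDIP over input) at the 10 islands with the widest range, ordered by rank and labelled by chromosome and number of probes, with a line from the lowest to the highest mouse. Replicate 2 stands apart at ranks 1, 4, 5, 9 and 10, replicate 1 at ranks 2, 3 and 7, and replicate 3 at ranks 6 and 8.

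**Figure D5:**
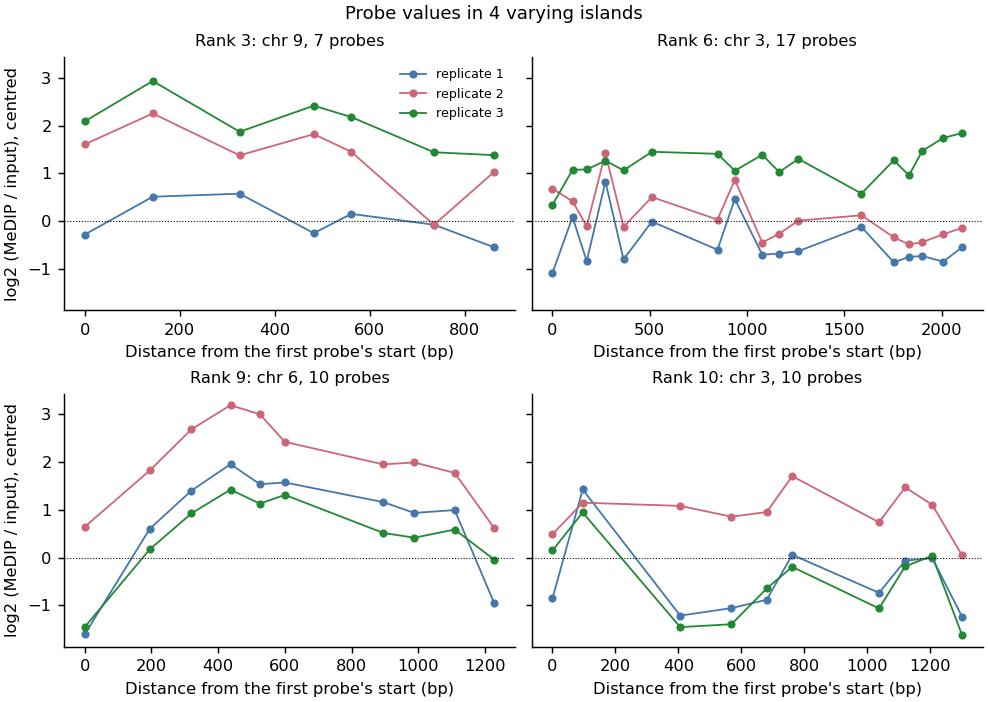
Level of each probe (centred log2 ratio of MeDIP over input) by distance from the start of the first probe, in base pairs, with a line for each mouse, for the islands of ranks 3, 6, 9 and 10 by range. The separation of the mice runs along each island and is not carried by a single probe.

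Of the 155 varying islands, 33 had another within 250 kb, in 14 groups. In 8 of these groups the same mouse stood apart in the same direction throughout. Beside this, replicate 2 was apart and higher at 91 of all 155 varying islands. It had the highest level at 4230 of all 13828 islands and at 1152 of the 2532 enriched ones. Whether the groups went beyond these shares was not tested. The largest group lay on chromosome 2 from 74458432 to 74499777, where 5 of 10 islands varied and replicate 2 was the highest at 8 of the 10. Its island from 74482926 had levels of 1.84, 2.80 and 1.48, and that from 74498664 had 0.93, 2.07 and 0.85. Of the other varying islands there, that from 74458432 had dim input, and that from 74480465 had an input range of 1.13 beside its ratio range of 1.40. The next lay on chromosome 6 from 52102001 to 52134506, where 4 of 5 islands varied and replicate 2 was highest at all 5. Its island from 52133274 had 3.09, 3.93 and 2.57. With quantile normalization 4 of the 5 islands on chromosome 2 and 1 of the 4 on chromosome 6 stayed past a range of 1, and with loess 2 and 0. Without replicate 2 no island of either group did, with ranges of at most 0.36 and 0.52. Replicate 2 was the mouse apart at each of these varying islands, so narrower ranges without it follow by construction.

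In the smaller groups either replicate 2 or another mouse stood apart. On chromosome 8 a pair of islands from 74583664 to 74589562 had replicate 1 higher, with 2.39, 1.77 and 1.25 at the first and 1.54, 0.48 and 0.56 at the second, whose input was dim. On chromosome 17 a pair from 87654265 to 87707262 had replicate 2 higher, at 2.88, 3.67 and 2.61 and at 0.04, 1.07 and -0.11 over 19 probes. With loess neither island of this pair stayed past a range of 1, at 0.51 and 0.85, and with quantile normalization 1 did not, at 0.85. On chromosome 8 the narrower range was 0.62 with loess.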

How the data were processed

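Genomic DNA of 3 Mdr2-KO livers was hybridized to 2-colour Agilent mouse CpG island arrays (Cy5 MeDIP, Cy3 input, per the labels). The authors deposited scanner output whose processed intensity values Agilent Feature Extraction (8.5.1.1 in the submitters' notes, 10.5.1.1 in the file headers) had corrected for background and dye, its log10 ratio, its flags, which are other values, and a table of normalized score values per probe. Of 94687 features, 5950 controls and 31 probes with an outlier spot were left out. Log2 ratios were centred on the array median and averaged over islands. Limma 3.58.1 in R 4.3.3 (intercept only, eBayes, two-sided, Benjamini-Hochberg over 13828 islands, checked on simulated data) tested each level against 0. The deposited log10 ratio served as a check and differed from the log10 ratio of the processed intensities by at most 0.159. This difference is in log10 units, which are larger than the log2 units of the levels. Figures used matplotlib 3.10.9.

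Islands were called at an adjusted p under 0.05 and a mean of 1 or more, or -1 or less, and called varying at a range of 1 or more. Named were the 10 highest enriched, 10 lowest depleted, 10 widest in range and 5 enriched with the smallest SD. Islands named beyond these, in stretches, in groups of varying islands or for their neighbours, were chosen after their values were seen. The comparison and the lists were chosen with earlier results of these data known. The replicates are separate mice with 1 array each, and their number limits the precision. Alternatives covered background correction, normalization, centring, filters, island building, the test and each mouse left out. Lists of genes could not be applied without gene names in the mm8 build, and island sequences were not used here.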

Additional observations from a re-analysis of the deposited data

How the results depend on the processing

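The counts of 2532 enriched, 894 depleted and 155 varying islands, 91 of the last with replicate 2 apart and higher, moved by over 1.5 times as follows, and where no construction is named the cause was not tested. With normexp, run on median signals with an offset of 50 added to both channels, they were 1666, 0, 250 and 4. Such an offset draws ratios of dim signals towards 0 by construction, and its part in these counts was not tested. Loess left 66 varying and 10 with replicate 2 higher, quantile normalization left 56 with replicate 2 higher, and removal of each mouse's level trend, chosen after seeing the data, left 60. Medians over probes in place of means gave 376 and 152. At least 5 probes per island left 8911 islands to test, with counts of 1234, 538, 76 and 59. Adjusted p alone gave 4769 and 6215, and limma's treat gave 261 depleted. A range of 1.5 left 10 varying islands and the input channel alone gave 9. Leaving out each mouse in turn gave 2480 to 2611 enriched, 782 to 991 depleted and 27 to 118 varying, with 118 without replicate 1, 27 without replicate 2 and 52 without replicate 3, where a pair in place of 3 mice narrows the range by construction. Other settings kept the counts within 1.5 times. With the authors' scores they were 2121, 612, 115 and 90 over 11211 islands. Leaving out the islands of dim input, also chosen after seeing the data, left 134 varying. This only takes those islands from the count, with the other ranges unchanged, and checks nothing further. The level of the island on chromosome 17 from 39451519 turned to -1.34 with loess. Signal over background limits the 156 of 894 depleted islands where MeDIP was dim on all arrays. No paired analysis was possible because a single group was analysed.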

Other observations

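Probes outside the islands were higher than those within. The 2753 probes in runs of 1 or 2 had a median level of 0.34 with 34.5% at 1 or more, and 379 probes to which the files give no position had a median of 1.19 with 57.5% at 1 or more. The 85574 probes in islands had -0.03 and 22.8%.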
